A study of Mus musculus with 15 samples.

Results

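The Rab GTPases are the largest branch of the Ras superfamily of small GTP-binding proteins. They were taken as every gene whose name in the deposited gene tables is Rab followed by a number, with or without a letter and a digit after it. The rule found 59 of 25814 genes. Genes named after a Rab they bind, such as Rabggtb or Rab11fip1, were left out, and Rab1 in these tables is the gene also called Rab1a. The RNA came from bone marrow-derived macrophages (BMDMs) of wild-type adult C57BL/6 mice, grown for 6 days in medium with 10% fetal bovine serum, 20% conditioned medium of L929 fibroblasts as the source of growth factor, and 50 µM β-mercaptoethanol. Cells were left as control, treated with 10 µg/ml poly(I:C), a synthetic mimic of viral double-stranded RNA and ligand of TLR3, or treated with 4 µM CL075, a small thiazoloquinoline agonist of TLR7 and TLR8. Both treatments lasted 6 h, and each of the 3 groups had 5 libraries of poly(A) RNA. The labels did not say that the 5 libraries of a group came from separate mice or cultures. P-values therefore measure the spread between these libraries, which may be technical. Read file names joined WT to the replicate number, so each number named a library of every group, without saying what it stands for.

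Rab proteins switch between a GDP-bound form, held in the cytosol by GDP dissociation inhibitors, and a GTP-bound form anchored to a membrane by prenyl groups. Exchange factors (GEFs) load GTP, activating proteins (GAPs) speed its hydrolysis, and effectors bound by the GTP form tether, move or fuse vesicles. Each Rab marks its own set of membranes, so that in macrophages the early endosome, the maturing phagosome, the recycling endosome, the Golgi and secretory granules carry different members. Toll-like receptors that sense RNA, TLR3 and TLR7 among them, signal from endosomes.

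Gene counts summed to between 21816291 and 32487565 per library. Levels of a gene across libraries are given below as CPM, read counts relative to library size on the trimmed-mean (TMM) scale, and levels between genes as the deposited TPM, which is also relative to gene length. The labelled cell type was checked with its markers: the 9 of 10 macrophage markers present under their listed names summed to 33921 to 37179 CPM in control libraries, 35222 to 40097 CPM after CL075 and 39293 to 41459.9 CPM after poly(I:C). Neutrophil markers summed to 20.7 to 83.3, 107 to 207 and 37.2 to 150.2 CPM in the same order, with none of the 10 at 0 throughout a group. Mast cell and basophil markers summed to 1.301 to 2.57, 6.02 to 8.44 and 51.1 to 59.4 CPM, with Mcpt4 and Cma1 at 0 in every library. Dendritic cell markers summed to 7.83 to 17.5, 11.4 to 20.8 and 27.1 to 36.3 CPM in that order. T and NK cell markers summed to 46.8 to 57.3, 37.7 to 48.1 and 72.6 to 86.2 CPM. B cell markers summed to 69.45 to 88.7, 69.9 to 88.2 and 69.9 to 85.9 CPM. Fibroblast and stroma markers summed to 1.003 to 2.43, 3.27 to 4.30 and 0.986 to 2.03 CPM. The part of these other cells in the results was not tested. In such bulk RNA fewer cells of a type and less RNA per cell cannot be told apart.

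BMDMs expressed most of the family. At least 44 of the 59 members had a mean TPM above 0.5 in each group (48 in control, 45 after CL075 and 44 after poly(I:C)). Of the 59, 47 passed the count filter and were tested, together with 11804 genes in all. The other 12 were Rab3b, Rab3c, Rab9b, Rab15, Rab17, Rab25, Rab26, Rab27b, Rab30, Rab39b, Rab40b and Rab42. Rab9b had no read in any library. Among these 12, Rab42 had 52 counts over the 5 control libraries, 2 after CL075 and 5 after poly(I:C), and Rab30 had 21, 13 and 56, which left both below the filter. In a fit without the filter, Rab42 was called lower with both ligands. Its log2 fold change there was −2.41 with poly(I:C) (edgeR adjusted p = 0.0017) and −3.96 with CL075 (edgeR adjusted p = 4.2e-05). Since a gene can pass a count filter through its high group alone, counts over the 47 describe the genes tested and not the whole family.

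Among the Rab genes of control BMDMs, Rab7, which drives late endosomes towards lysosomes, had the highest level at 477 ± 18.2 TPM (SD, n = 5). Rab5c, an early endosome Rab, followed at 383 ± 16.3 TPM. Rab8b, which acts in transport to the plasma membrane, came next at 309.9 ± 12.2 TPM, and its range over libraries overlapped that of Rab1, the ER-to-Golgi Rab, at 301 ± 8.21 TPM. These neighbours were therefore not separated, whereas Rab7, Rab5c and Rab8b were separated from each other. Rab14 at 213 ± 10.1 TPM overlapped Rab5b at 212 ± 3.22 TPM, and Rab31, Rab32 and Rab11a formed the next group of overlapping levels, from 192 down to 184 TPM. The 10 highest genes held 64.0% of all Rab TPM in control cells. Rab3a, known from synaptic vesicles, stood at 4.44 ± 0.349 TPM and Rab6b, the brain-enriched sister of Rab6a, at 1.998 ± 0.397 TPM.

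The order changed with each ligand. After poly(I:C), Rab8b at 472 ± 23.2 TPM and Rab1 at 459 ± 16.2 TPM stood above Rab7 at 404 ± 11.6 TPM. After CL075, Rab7 at 458 ± 7.46 TPM and Rab1 at 395 ± 16.8 TPM were highest, and Rab10 reached 349 ± 13.1 TPM from 137 ± 8.73 TPM. The 59 genes together summed to 4018 to 4092 TPM in control, 4285 to 4475 TPM after CL075 and 3996 to 4108 TPM after poly(I:C). On the TMM scale the same sums were 3604 to 3763, 4801 to 5187 and 6488 to 6902 CPM. With CL075 the total was above control in both units without overlap. With poly(I:C) it overlapped control in TPM and lay above it in CPM.

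**Figure D1:**
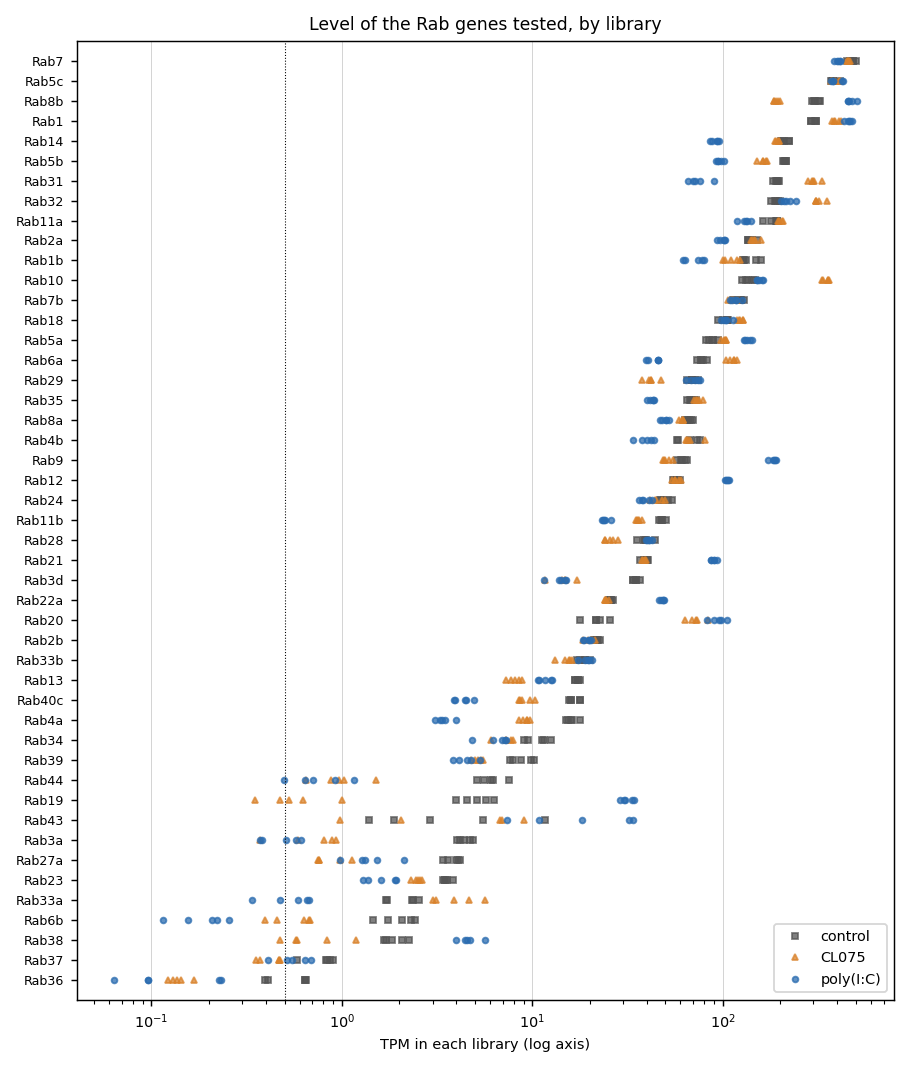
Level of each of the 47 tested Rab genes in the 15 libraries, in TPM on a log axis, ordered by the control mean, with grey squares for control, orange triangles for CL075 and blue circles for poly(I:C), and a dotted line at 0.5 TPM. Levels spanned from under 1 TPM (Rab36, Rab37) to 477 TPM (Rab7, control mean), and Rab19, Rab9, Rab21 and Rab20 lie apart from their control points after poly(I:C).

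On the TMM scale, poly(I:C) raised more Rab transcripts than it lowered, a balance that was even with upper-quartile factors and turned with Hprt or library totals as the scale. Calls required an edgeR adjusted p below 0.05, more than a 1.5-fold difference and, in at least 1 of the groups compared, a mean above 0.5 TPM. With poly(I:C), 21 of the 47 tested members were higher than control (44.7%) and 7 were lower (14.9%), against 25.4% and 30.5% of all tested genes. The median log2 fold change was 0.368 over the members and −0.083 over all tested genes. With CL075, 8 members were higher (17.0%) and 9 were lower (19.1%), close to the 17.6% and 21.5% of all tested genes. Its median was 0.209 over the members and −0.022 over all tested genes. The 5 treated and 5 control libraries did not overlap for 38 members with poly(I:C) and 39 with CL075, where 75.9% and 65.2% of all tested genes did not overlap. Both comparisons use the same control libraries.

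By ligand, Rab1, Rab10, Rab18, Rab20 and Rab32 were higher with both, and Rab3a, Rab6b, Rab36 and Rab44 were lower with both, where 10.5% and 15% of all tested genes were so called. Rab2b, Rab5a, Rab5c, Rab7, Rab7b, Rab8b, Rab9, Rab12, Rab21, Rab22a, Rab28, Rab29, Rab33b and Rab43 were called higher with poly(I:C) and not called with CL075. Rab6a and Rab31 were called higher with CL075 alone, Rab13, Rab27a and Rab3d lower with CL075 alone, and Rab4a and Rab40c lower with poly(I:C) alone. Rab19, Rab38 and Rab33a were called in opposite directions. The other 14 tested members were called with neither ligand: Rab1b, Rab2a, Rab4b, Rab5b, Rab8a, Rab11a, Rab11b, Rab14, Rab23, Rab24, Rab34, Rab35, Rab37 and Rab39. A call with 1 ligand and none with the other does not show a difference between them, which the direct comparison further below tests.

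**Figure D2:**
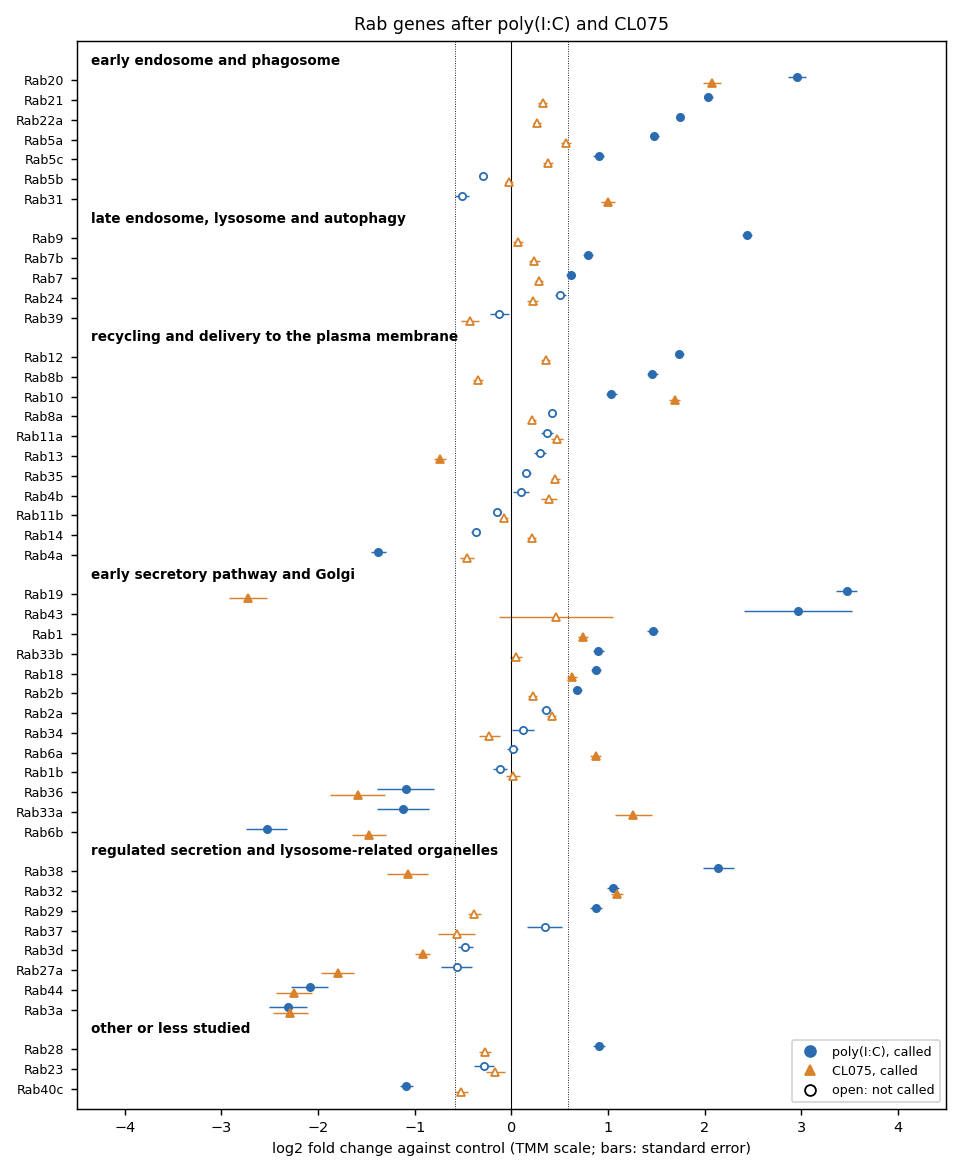
Fold change of the 47 tested Rab genes against control on a log2 axis (TMM scale), grouped by where the protein is known to act, with blue circles for poly(I:C), orange triangles for CL075 and bars for the standard error. Filled symbols were called and dotted lines mark a 1.5-fold change, and Rab19 and Rab38 lie on opposite sides of 0 for the 2 ligands.

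Rab19, a Rab of the Golgi that has been little studied in macrophages, had the largest change of the family with poly(I:C). Rab19 was measured at 2.21, 1.96, 3.09, 2.83 and 2.46 CPM in the 5 control libraries, at 0.213, 0.298, 0.3302, 0.6603 and 0.371 CPM after CL075 and at 29.2, 26.5, 26.9, 29.8 and 26.6 CPM after poly(I:C). The 3 groups did not overlap, with CL075 lowest and poly(I:C) highest. The log2 fold change was 3.47 (SE 0.11, edgeR adjusted p = 9.2e-16) with poly(I:C) and −2.72 (SE 0.2, edgeR adjusted p = 3.9e-10) with CL075. Between the ligands, the log2 difference was 6.19 (SE 0.15, edgeR adjusted p = 5.1e-17). The calls of Rab19 held on all 5 scales tried (TMM, DESeq2 size factors, upper quartile, library totals and Hprt). Opposite calls with the 2 ligands were found for 3 of the 47 tested members (Rab19, Rab33a and Rab38) and for 3.74% of all tested genes. The order of Rab19 and Rab38 (poly(I:C) above control, CL075 below it) was called for 1.92% of all tested genes and that of Rab33a for 1.81%.

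Rab38, which with its close relative Rab32 serves melanosomes and other lysosome-related organelles, followed the same order at lower counts. Rab38 was measured at 0.889, 0.849, 0.812, 1.11 and 0.999 CPM in the 5 control libraries, at 0.723, 0.298, 0.363, 0.5503 and 0.343 CPM after CL075 and at 4.96, 3.61, 3.95, 4.097 and 3.98 CPM after poly(I:C). All 5 CL075 libraries lay below all 5 control libraries, and all 5 poly(I:C) libraries lay above them. The log2 fold change was 2.14 (SE 0.16, edgeR adjusted p = 3.8e-10) with poly(I:C) and −1.07 (SE 0.21, edgeR adjusted p = 1.5e-04) with CL075. Rab33a, a Golgi Rab that with Rab33b binds the autophagy protein Atg16l1, went the other way. Rab33a was measured at 0.831, 0.929, 0.623, 0.858 and 0.604 CPM in the 5 control libraries, at 2.51, 2.15, 1.39, 1.504 and 1.71 CPM after CL075 and at 0.304, 0.438, 0.439, 0.377 and 0.216 CPM after poly(I:C). Again the 3 groups did not overlap, but here CL075 was highest and poly(I:C) lowest. The log2 fold change was −1.12 (SE 0.27, edgeR adjusted p = 7.7e-04) with poly(I:C) and 1.26 (SE 0.19, edgeR adjusted p = 8.0e-06) with CL075. Both genes had few reads, with at most 4.96 CPM in any library for Rab38 and 2.51 CPM for Rab33a.

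Promoter letters are shown for 3 members with different patterns: Rab19 (opposite calls, higher with poly(I:C)), Rab33a (opposite calls, higher with CL075) and Rab20 (higher with both). Rab38 was not matched. RefSeq start sites on GRCm38.p6 gave 60 promoters for 48 members, each from 250 bases before to 50 bases after the start. The motifs were searched on both strands by their letters alone. The ISRE-like motif, after the interferon-stimulated response element, was GAAA, any 2 bases, then GAAA. The NF-κB-like motif was GGG, any 5 bases, then CC, a loose form, and the E-box was CACGTG, bound by factors such as TFEB. Matches could overlap. Capitals mark every match, on either strand. The Rab19 window is chr6:39381103-39381402 on the plus strand, that of Rab20, which rose with both ligands, is chr8:11478591-11478890 on the minus strand, and that of Rab33a, with the opposite order to Rab19, is chrX:48519035-48519334 on the plus strand.
Rab19: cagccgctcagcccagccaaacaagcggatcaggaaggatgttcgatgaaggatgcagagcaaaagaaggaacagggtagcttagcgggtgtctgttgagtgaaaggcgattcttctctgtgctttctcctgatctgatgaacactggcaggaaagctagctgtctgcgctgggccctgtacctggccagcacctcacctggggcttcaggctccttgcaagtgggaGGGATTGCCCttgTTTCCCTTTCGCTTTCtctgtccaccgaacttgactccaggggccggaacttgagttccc
Rab20: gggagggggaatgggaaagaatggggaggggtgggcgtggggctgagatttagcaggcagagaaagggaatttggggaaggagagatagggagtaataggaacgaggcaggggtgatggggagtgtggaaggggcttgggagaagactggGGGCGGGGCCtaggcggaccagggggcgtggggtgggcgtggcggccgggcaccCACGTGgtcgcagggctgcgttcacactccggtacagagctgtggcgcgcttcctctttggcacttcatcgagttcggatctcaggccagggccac
Rab33a: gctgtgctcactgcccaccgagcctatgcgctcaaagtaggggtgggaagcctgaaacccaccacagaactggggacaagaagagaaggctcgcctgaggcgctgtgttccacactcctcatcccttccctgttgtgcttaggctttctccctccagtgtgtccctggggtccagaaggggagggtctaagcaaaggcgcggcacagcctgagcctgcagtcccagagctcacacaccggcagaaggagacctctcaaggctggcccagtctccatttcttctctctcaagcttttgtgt

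Rab19 was the one member of the 48 whose window held the ISRE-like motif, which 3.44% of all 32851 RefSeq promoters of this length held. It held 2 overlapping matches on the minus strand, leftmost bases at −10 and −4 relative to the RefSeq start, next to 1 NF-κB-like match at −23. The deposited gene tables start Rab19 further upstream, at base 39381175 of the chromosome, and by that start these matches lie within the gene. Rab20 held 1 NF-κB-like match at −100 and 1 E-box at −46. Rab33a held none of the 3 motifs in its window. Among all promoters, 50.8% held the NF-κB-like motif, and 41 of the 60 member promoters did, from 36 of the 48 members. CACGTG was in 7.15% of all promoters and in 6 of the 60, those of Rab5a, Rab20, Rab21, Rab23, Rab24 and Rab27a. A match is a string of letters in a window and was not tested as a binding site.

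**Figure D3:**
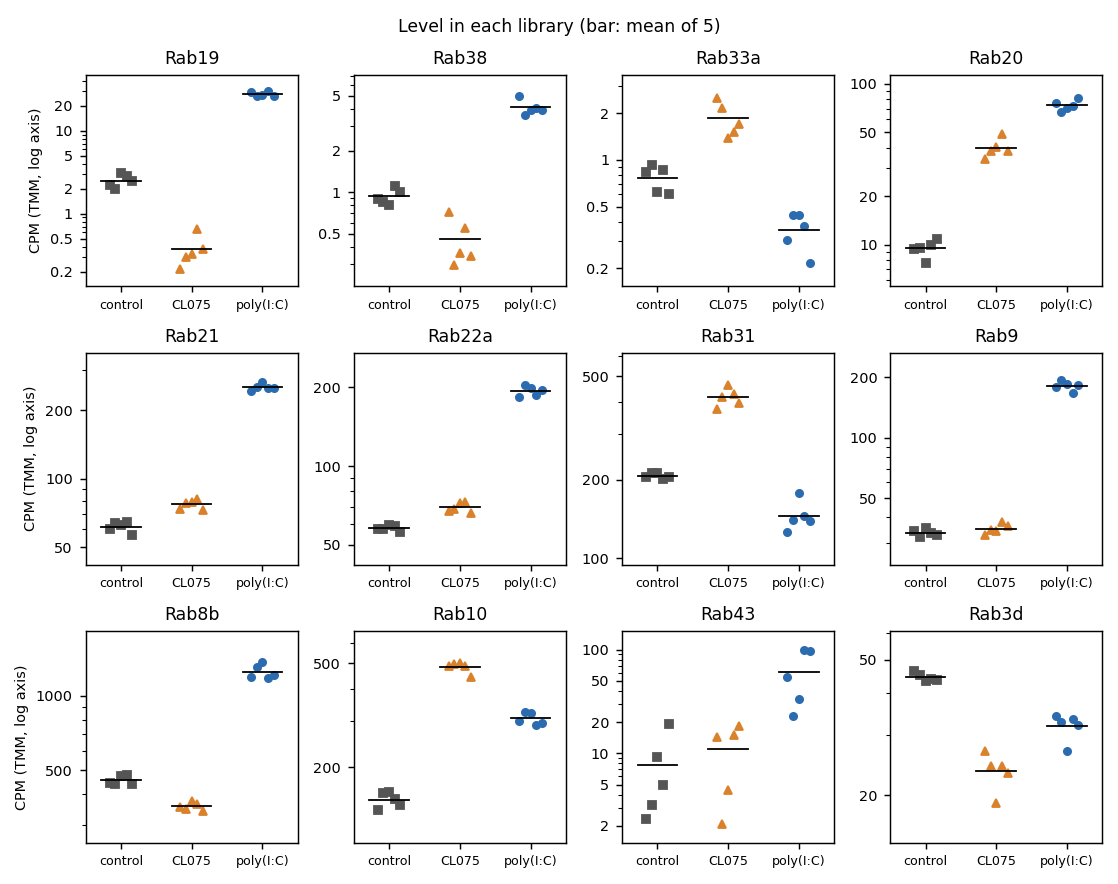
Level of 12 Rab genes in each of the 15 libraries, in TMM-scaled CPM on log axes that differ between panels, with a bar at the mean of the 5 libraries of a group. The groups are apart for Rab19, Rab38, Rab33a, Rab20, Rab21, Rab22a, Rab31, Rab8b and Rab10, while Rab43 spreads widely within every group.

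In the early endosome and phagosome group, 5 of 7 tested members rose with poly(I:C) (71.4%, against 25.4% of all tested genes), none fell (against 30.5%) and Rab5b and Rab31 were not called. The 5 were Rab5a, Rab5c, Rab20, Rab21 and Rab22a, and with library totals as the scale Rab20, Rab21 and Rab22a were still called. Rab20 rose with both ligands. It is known in macrophages from phagosome maturation and is induced by interferon-γ. Rab20 was measured at 9.34, 9.501, 7.72, 9.95 and 10.9 CPM in the 5 control libraries, at 33.99, 38.2, 40.7, 48.8 and 38.4 CPM after CL075 and at 75.5, 66.9, 70.7, 73.1 and 81.3 CPM after poly(I:C). The groups did not overlap, and the log2 fold change was 2.95 (SE 0.1, edgeR adjusted p = 1.3e-15) with poly(I:C) and 2.08 (SE 0.09, edgeR adjusted p = 6.7e-13) with CL075. The E230013L22Rik gene, which overlaps 25.6% of the exon bases of Rab20 on the other strand, had 0 counts in all libraries; whether the counting used strand was not stated in the sources used here. Rab20 kept both calls on all 5 scales.

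Rab21 acts on early endosomes and in the traffic of integrins. Rab21 was measured at 60.1, 63.98, 62.6, 64.5 and 56.6 CPM in the 5 control libraries, at 73.8, 78.3, 79.1, 81.7 and 72.5 CPM after CL075 and at 243, 253, 266, 249.9 and 252 CPM after poly(I:C). The poly(I:C) libraries lay well above the others, with a log2 fold change of 2.04 (SE 0.05, edgeR adjusted p = 1.4e-17), and with CL075 it was 0.32 (SE 0.05, edgeR adjusted p = 4.7e-06), below the fold required. Rab22a and Rab31 (also known as Rab22b) form a pair close to Rab5, and they moved differently. Rab22a was measured at 57.6, 57.5, 59.3, 59.2 and 56.05 CPM in the 5 control libraries, at 67.6, 68.8, 72.5, 72.8 and 66.2 CPM after CL075 and at 184, 203, 199, 187 and 195 CPM after poly(I:C). Rab22a rose with poly(I:C), with a fold change of 1.74 (SE 0.04, edgeR adjusted p = 2.1e-17) on the log2 scale, against 0.26 (SE 0.04, edgeR adjusted p = 1.3e-05) with CL075. Rab31 was measured at 205, 213, 214, 202 and 205 CPM in the 5 control libraries, at 374, 418, 462, 426 and 395 CPM after CL075 and at 126, 139.8, 178, 146 and 139 CPM after poly(I:C). Rab31 rose with CL075, at a log2 fold change of 1.0 (SE 0.07, edgeR adjusted p = 6.6e-10), and all 5 poly(I:C) libraries lay below control at −0.51 (SE 0.07, edgeR adjusted p = 3.8e-06), short of the fold required. With upper-quartile factors, Hprt or library totals as the scale, Rab31 was called lower with poly(I:C), at −0.84, −1.07 and −1.45.

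The Rab5 genes, whose proteins drive fusion of early endosomes, were unequal as well. Rab5c was measured at 252, 263, 254, 261 and 275 CPM in the 5 control libraries, at 313, 326, 338, 379 and 342 CPM after CL075 and at 465, 484, 461, 509 and 519 CPM after poly(I:C). Rab5c was thus highest after poly(I:C), its log2 fold change being 0.9 (SE 0.05, edgeR adjusted p = 1.3e-11), but this call was lost with upper-quartile factors, Hprt or library totals in place of TMM, and its value on library totals was −0.035. Rab5a went from 64.3 ± 4.43 CPM in control to 95.2 ± 2.02 CPM after CL075 and 179 ± 8.81 CPM after poly(I:C) (SD, n = 5). It rose with poly(I:C) at 1.48 (SE 0.05, edgeR adjusted p = 1.9e-15), and with CL075 the value was 0.57 (SE 0.05, edgeR adjusted p = 5.5e-09). Rab5b, at 209.7 ± 5.11, 205 ± 5.48 and 171 ± 8.24 CPM in the same order, had log2 values of −0.03 and −0.29 and was called with neither ligand. With poly(I:C) it was called lower with upper-quartile factors, Hprt or library totals as the scale, at −0.62, −0.85 and −1.23.

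In the late endosome, lysosome and autophagy group, 3 of 5 tested members rose with poly(I:C) and none was called with CL075, where 25.4% of all tested genes rose with poly(I:C) and 39.1% were called in either direction with CL075. With library totals, Hprt or upper-quartile factors as the scale, Rab9 alone of the 3 was called. Rab9, which returns mannose 6-phosphate receptors from late endosomes to the trans-Golgi, was the clearest. Rab9 was measured at 34.2, 31.9, 35.5, 33.4 and 32.6 CPM in the 5 control libraries, at 32.7, 34.5, 34.1, 37.9 and 36.3 CPM after CL075 and at 179, 194, 185, 167 and 183 CPM after poly(I:C). Control and CL075 libraries overlapped while poly(I:C) libraries lay far above both, at a log2 fold change of 2.44 (SE 0.05, edgeR adjusted p = 3.6e-18) against 0.07 (SE 0.05, edgeR adjusted p = 0.23) with CL075. Rab7 was measured at 390.2, 411, 366, 398 and 371 CPM in the 5 control libraries, at 471, 474, 467, 493 and 457 CPM after CL075 and at 599.6, 612, 571, 595 and 579.7 CPM after poly(I:C). The poly(I:C) libraries of Rab7 lay above control, at 0.61 (SE 0.04, edgeR adjusted p = 2.5e-10) with poly(I:C) and 0.29 (SE 0.04, edgeR adjusted p = 1.1e-05) with CL075. This small change of Rab7 turned to −0.33 with library totals as the scale and was not called when tested against 1.5-fold itself. Rab7b, a separate late endosome Rab, had 0.79 (SE 0.06, edgeR adjusted p = 1.5e-10) with poly(I:C), and with library totals −0.14. Rab24, linked to autophagy, and Rab39 were not called with either ligand; for Rab24, 62.4% of exon bases lie across Prelid1 on the other strand.

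Of 11 tested members in recycling and delivery to the plasma membrane, Rab8b, Rab10 and Rab12 rose and Rab4a fell with poly(I:C), and Rab10 rose and Rab13 fell with CL075. Poly(I:C) thus raised 27.3% and lowered 9.09% of the 11, against 25.4% and 30.5% of all tested genes. CL075 raised 9.09% and lowered 9.09%, against 17.6% and 21.5%. Rab10 is known from delivery of the glucose transporter Glut4 and, in macrophages, of Tlr4 to the cell surface. Rab10 was measured at 137, 159, 161, 151 and 142 CPM in the 5 control libraries, at 488, 498, 500.0, 491 and 445 CPM after CL075 and at 302, 325, 323, 291 and 296 CPM after poly(I:C). The groups did not overlap, and CL075 was highest, at a log2 fold change of 1.69 (SE 0.06, edgeR adjusted p = 6.7e-15) against 1.03 (SE 0.06, edgeR adjusted p = 2.1e-12) with poly(I:C). The CL075 call held on all 5 scales, while the poly(I:C) call was lost with Hprt or library totals as the scale. Rab8b was measured at 444, 440.4, 475, 479 and 441 CPM in the 5 control libraries, at 357, 350.3, 377, 366 and 341 CPM after CL075 and at 1194, 1312, 1366, 1182 and 1213 CPM after poly(I:C). Rab8b rose with poly(I:C) at 1.46 (SE 0.05, edgeR adjusted p = 7.9e-15), and all CL075 libraries lay below control at −0.35 (SE 0.05, edgeR adjusted p = 8.8e-06), short of the fold required.

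Rab12, which sends transferrin receptor to lysosomes, went from 34.8 to 37.99 CPM in control to 119 to 123 CPM after poly(I:C), its log2 fold change being 1.74 (SE 0.05, edgeR adjusted p = 1.6e-16), and held on all 5 scales. Rab4a, of the fast recycling route, had 8.23 to 9.66 CPM in control and 3.12 to 3.9 CPM after poly(I:C), a log2 fold change of −1.38 (SE 0.08, edgeR adjusted p = 1.2e-11). These 2 genes moved in opposite directions without overlap of the libraries. Rab13, known from tight junctions of epithelia, had 8.68 to 9.06 CPM in control and 4.79 to 5.62 CPM after CL075, at −0.74 (SE 0.06, edgeR adjusted p = 4.8e-09). The remaining members Rab4b, Rab8a, Rab11a, Rab11b, Rab14 and Rab35 had log2 values from −0.37 to 0.47 over both comparisons, and none was called. Rab11a and Rab11b mark recycling endosomes, and Rab14 acts between endosomes and the Golgi. Of Rab4b, 65.0% of the exon bases are shared with the same-strand gene Gm21983.

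In the early secretory pathway and Golgi, 6 of 13 tested members rose (46.2%) and 3 fell (23.1%) with poly(I:C), against 25.4% and 30.5% of all tested genes. With CL075, 4 rose (30.8%) and 3 fell (23.1%), against 17.6% and 21.5%. Rab1, which carries vesicles from the ER to the Golgi, rose with both ligands. Rab1 was measured at 256, 271, 270.2, 275 and 251 CPM in the 5 control libraries, at 417, 423, 469, 480.1 and 419 CPM after CL075 and at 711, 758, 767, 677 and 729 CPM after poly(I:C). The groups were separate, with log2 fold changes of 1.46 (SE 0.05, edgeR adjusted p = 1.0e-14) for poly(I:C) and 0.74 (SE 0.05, edgeR adjusted p = 5.4e-10) for CL075. With library totals as the scale the values were 0.52 and 0.39, below the fold required, and the CL075 call was lost with upper-quartile factors (0.58) and Hprt (0.45) too. Rab6a, of retrograde transport to and through the Golgi, changed with CL075. Rab6a was measured at 81.6, 90.02, 81.9, 85.5 and 76.5 CPM in the 5 control libraries, at 157, 157, 156, 148 and 142 CPM after CL075 and at 86.7, 91.1, 89.5, 76.8 and 75.4 CPM after poly(I:C). All CL075 libraries lay above the others, at 0.87 (SE 0.06, edgeR adjusted p = 1.4e-10), while the value was 0.01 (SE 0.06, edgeR adjusted p = 0.84) with poly(I:C) and −0.93 with library totals as the scale. The CL075 call of Rab6a was lost when scaled to Hprt (0.58) or to library totals (0.52). Mrpl48 lies across 18.99% of its exon bases on the other strand.

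Rab43, a Golgi Rab that in mouse dendritic cells is known from cross-presentation, was unsteady between libraries. Rab43 was measured at 2.32, 3.18, 9.23, 4.92 and 19.05 CPM in the 5 control libraries, at 14.4, 2.08, 4.39, 15.1 and 18.5 CPM after CL075 and at 54.4, 22.9, 33.1, 99.8 and 96.5 CPM after poly(I:C). Control and CL075 libraries spread over the same range and all poly(I:C) libraries lay above them, at a log2 fold change of 2.96 (SE 0.56, edgeR adjusted p = 8.1e-05). The gene Gm45140 covers 75.4% of the exon bases of Rab43 on the same strand, and 74.2% of its 75-base stretches occur in Gm45140 too, so the counts of the pair are uncertain. Summed over both genes, a calculation added after the data were seen, the libraries held 103 to 131 CPM in control, 81.6 to 104 CPM after CL075 and 257 to 331 CPM after poly(I:C). This sum was far steadier within groups, and its log2 fold change with poly(I:C) was 1.26 (edgeR adjusted p = 3.6e-11), smaller than that of Rab43 alone.

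Rab6b, Rab36 and Rab33a were the 3 Golgi members that fell with poly(I:C). Rab6b had 2.27 to 3.75 CPM in control, 0.793 to 1.32 CPM after CL075 and 0.329 to 0.709 CPM after poly(I:C), with log2 fold changes of −1.47 (SE 0.17, edgeR adjusted p = 4.0e-07) and −2.53 (SE 0.21, edgeR adjusted p = 2.1e-09). Rab36 had 0.504 to 0.829 CPM in control, 0.198 to 0.257 CPM after CL075 and 0.141 to 0.548 CPM after poly(I:C), at −1.59 (SE 0.29, edgeR adjusted p = 6.4e-05) and −1.1 (SE 0.29, edgeR adjusted p = 0.0022). The poly(I:C) and control libraries of Rab36 overlapped, and its calls were lost with a TPM floor of 1. Both are rare transcripts in these cells. Rab18, found on lipid droplets and the ER, rose with both ligands, at 0.88 (SE 0.05, edgeR adjusted p = 1.2e-11) with poly(I:C) and 0.62 (SE 0.05, edgeR adjusted p = 3.5e-09) with CL075, and both calls were lost with upper-quartile factors, Hprt or library totals as the scale. The CL075 call was also lost when tested against 1.5-fold itself. Rab33b had 0.9 (SE 0.06, edgeR adjusted p = 7.6e-11) and Rab2b 0.68 (SE 0.05, edgeR adjusted p = 1.7e-10) with poly(I:C). With library totals as the scale, the poly(I:C) values of Rab18, Rab33b and Rab2b became −0.062, −0.036 and −0.26. Of Rab2b, 63.99% of exon bases lie across Gm43766 and Tox4 on the other strand. Gm43766, which held most of the 75-base stretches that Rab2b shared with these genes, had 0 counts in all libraries. Tox4, which held few of them, was itself higher with poly(I:C). Rab1b, Rab2a and Rab34 were not called with either ligand.

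In regulated secretion and lysosome-related organelles, 5 of 8 tested members fell (62.5%) and 1 rose (12.5%) with CL075, against 21.5% and 17.6% of all tested genes. With poly(I:C), 2 of the 8 fell and 3 rose (37.5%), against 30.5% and 25.4%. Rab32 rose with both ligands and its protein is known in macrophages from the killing of Salmonella Typhi in mice. Rab32 was measured at 130.2, 147, 142, 140.1 and 135 CPM in the 5 control libraries, at 288, 286, 328, 302 and 275 CPM after CL075 and at 295, 283, 323, 259.8 and 278 CPM after poly(I:C). Both treated groups lay above control, at log2 fold changes of 1.09 (SE 0.06, edgeR adjusted p = 1.0e-11) with CL075 and 1.05 (SE 0.06, edgeR adjusted p = 6.7e-12) with poly(I:C), and the difference between the ligands was −0.04 (SE 0.06, edgeR adjusted p = 0.56). The poly(I:C) call was lost with Hprt or library totals as the scale, and the CL075 call held on all 5. Rab3d, of secretory granules in exocrine and mast cells, was lowest after CL075. Rab3d was measured at 46.5, 45.2, 43.3, 43.8 and 43.8 CPM in the 5 control libraries, at 27.01, 24.4, 18.96, 24.4 and 23.3 CPM after CL075 and at 34.3, 32.8, 26.97, 33.5 and 32.2 CPM after poly(I:C). Both treated groups lay below every control library and overlapped each other slightly, at −0.92 (SE 0.08, edgeR adjusted p = 2.7e-09) with CL075 and −0.48 (SE 0.08, edgeR adjusted p = 1.0e-05) with poly(I:C), the second short of the fold required.

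Rab27a, which docks lytic granules and exosome-bearing bodies at the plasma membrane, had 3.36 to 4.09 CPM in control, 0.914 to 1.42 CPM after CL075 and 1.75 to 3.89 CPM after poly(I:C). It fell with CL075 at −1.8 (SE 0.17, edgeR adjusted p = 2.1e-08), and with poly(I:C) the value was −0.57 (SE 0.16, edgeR adjusted p = 0.0031), which passed the fold required without poly(I:C) replicate 2 (−0.76). Rab3a, of synaptic vesicles in neurons, had 2.24 to 2.65, 0.265 to 0.6605 and 0.383 to 0.605 CPM in that order and fell with both ligands, at −2.29 (SE 0.18) and −2.31 (SE 0.2). Rab44, a large Rab with calcium-binding EF-hands known from mast cells and osteoclasts, had 6.63 to 9.43, 1.06 to 2.48 and 1.15 to 2.64 CPM and fell to a like extent, at −2.25 (SE 0.19) and −2.09 (SE 0.19). The sum of the mast cell and basophil markers was higher in both treated groups than in control, as given above. Of these markers, Tpsb2 had reads in control and none in either treated group. The part of such cells in the fall of Rab44 was not tested. Rab29, a partner of the kinase Lrrk2, rose with poly(I:C) at 0.87 (SE 0.06, edgeR adjusted p = 2.0e-10), and the value was −0.064 with library totals as the scale. Rab37, with 0.515 to 0.785 CPM in control, 0.396 to 0.5503 CPM after CL075 and 0.658 to 1.08 CPM after poly(I:C), was not called against control.

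Of the remaining members, Rab40c, whose SOCS box recruits a ubiquitin ligase, fell with poly(I:C). Rab40c was measured at 17.0, 15.5, 15.2, 15.1 and 16.7 CPM in the 5 control libraries, at 12.2, 10.4, 10.5, 11.2 and 11.4 CPM after CL075 and at 8.46, 7.01, 6.74, 7.58 and 7.57 CPM after poly(I:C). The groups did not overlap and poly(I:C) was lowest, at −1.09 (SE 0.07, edgeR adjusted p = 2.7e-11) against −0.52 (SE 0.06, edgeR adjusted p = 5.9e-07) with CL075, the second short of the fold required. Rab28, which acts at the photoreceptor cilium, had 0.9 (SE 0.06, edgeR adjusted p = 9.8e-11) with poly(I:C) and −0.033 with library totals as the scale. Rab23, an inhibitor of Hedgehog signalling, was called with neither ligand.

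Compared directly on the TMM scale, 17 of 47 members had more transcript with poly(I:C) than CL075 (36.2%) and 6 were lower (12.8%), against 22.7% and 23.7% of all tested genes. Rab19, Rab38, Rab43, Rab9, Rab8b, Rab21, Rab22a and Rab12 led the first set, with log2 differences of 6.19, 3.21, 2.5, 2.37, 1.81, 1.71, 1.48 and 1.39. Rab27a and Rab13, which fell with CL075, were in this set too, at 1.23 and 1.04, with Rab1, Rab5a, Rab20, Rab28, Rab29, Rab33b and Rab37. Rab33a, Rab31, Rab6b, Rab4a, Rab6a and Rab10 were higher with CL075, at −2.38, −1.51, −1.06, −0.92, −0.86 and −0.66. With library totals as the scale 11 were higher (23.4%) and 18 lower (38.3%), against 13.8% and 47.7% of all tested genes. On that scale the calls of Rab1, Rab5a, Rab13, Rab20, Rab33b and Rab37 were lost. The call of Rab10 was lost when tested against 1.5-fold itself. Rab32, Rab3a and Rab44 were near 0 in this comparison, at −0.04 (SE 0.06), −0.02 (SE 0.25) and 0.16 (SE 0.23). Each ligand was given at 1 dose and for 1 time, and differences between ligands cannot be told apart from differences in strength of the doses.

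Related Rab genes were then set against each other within each library, since a ratio of counts does not depend on the scale. For 14 pairs in which both genes were tested, the log2 ratio (0.5 count added) was compared between 5 treated and 5 control libraries with an exact two-sided permutation test, whose smallest p is 0.00794, and p-values were adjusted over the 28 tests. The ratio differed from control in 14 of 14 pairs with poly(I:C) and in 13 of 14 with CL075, each at an adjusted p of at most 0.0247. Since 75.9% and 65.2% of all single tested genes already did not overlap control, and other gene pairs were not tested, these counts say nothing particular to Rab pairs. The exception was Rab7 against Rab7b with CL075 (exact permutation adjusted p = 0.325).

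The Rab22a to Rab31 ratio moved in opposite directions with the 2 ligands. It was −1.89 to −1.77 on the log2 scale in control, −2.67 to −2.47 after CL075 and 0.16 to 0.55 after poly(I:C), a change of −0.73 and 2.26. Rab22a made up 11.9% ± 0.322 of the TPM of the pair in control (SD, n = 5), 7.499% ± 0.356 after CL075 and 39.3% ± 2.68 after poly(I:C). The ratio of Rab5a to Rab5b moved by 1.77 with poly(I:C) and 0.6 with CL075, and Rab5a made up 12.9% ± 0.798 of the Rab5 TPM in control, 15.6% ± 0.577 after CL075 and 21.6% ± 1.102 after poly(I:C). Rab8a against Rab8b moved by −1.03 with poly(I:C) and 0.56 with CL075. Opposite moves were also seen for Rab32 against Rab38, at −1.08 and 2.16, for Rab33a against Rab33b, at −1.97 and 1.2, and for Rab2a against Rab2b, at −0.32 and 0.19. The Rab6a to Rab6b ratio rose with both, by 2.52 and 2.34, as did Rab1 to Rab1b, by 1.58 and 0.72.

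**Figure D4:**
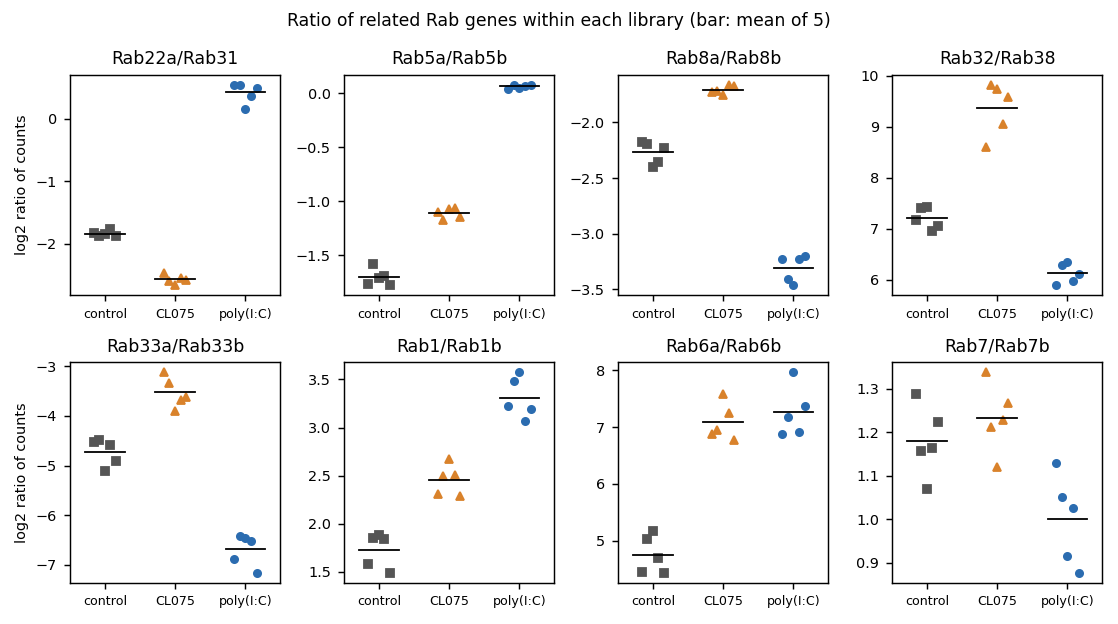
Log2 ratio of the counts of 8 pairs of related Rab genes in each library, with a bar at the mean of the 5 libraries of a group and axes that differ between panels. The treated libraries lie on opposite sides of control with the 2 ligands for Rab22a/Rab31, Rab8a/Rab8b, Rab32/Rab38 and Rab33a/Rab33b, and the CL075 and control points overlap for Rab7/Rab7b.

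The genes that load, unload and read Rab proteins were counted in 4 lists on the TMM scale, with 137 of 149 genes tested. Poly(I:C) raised 31 and lowered 46 of them, and CL075 raised 21 and lowered 30, near the shares of all tested genes (25.4% and 30.5%, and 17.6% and 21.5%). With library totals as the scale, poly(I:C) raised 14 and lowered 95 of the 137, where 13.1% and 64.9% of all tested genes were so called. GDP dissociation inhibitors, escort proteins and prenylation enzymes had 4 of 8 lower and none higher with poly(I:C), at a median log2 fold change of −0.595, against −0.083 over all tested genes. Gdi2, which extracts GDP-bound Rabs from membranes, had 1107 ± 49.9 CPM in control, 699.8 ± 25.4 CPM after CL075 and 521 ± 48.4 CPM after poly(I:C), at −1.09 (SE 0.06) with poly(I:C) and −0.66 (SE 0.06) with CL075. Chml, a Rab escort protein, fell with poly(I:C) at −1.8 (SE 0.1).

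Of 36 tested GAPs, 18 fell and 6 rose with poly(I:C), where 30.5% and 25.4% of all tested genes did, and 11 fell and 3 rose with CL075, where 21.5% and 17.6% did. Their medians were −0.707 and −0.161, against −0.083 and −0.022 over all tested genes. Tbc1d4, the GAP that holds back Rab10 in insulin-responsive cells, fell with both ligands, at −3.11 (SE 0.1) and −3.82 (SE 0.11), and Tbc1d17 fell with poly(I:C) at −3.14 (SE 0.13). Tbc1d13, a GAP of Rab35, rose at 2.21 (SE 0.06) and 0.78 (SE 0.06), and Tbc1d1 rose with poly(I:C) at 1.45 (SE 0.04). Tbc1d10b rose at 1.28 (SE 0.05) and Tbc1d16 fell at −1.97 (SE 0.15) with CL075.

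Of 43 exchange factors, poly(I:C) raised 11 and lowered 11, and CL075 raised 7 and lowered 7, near the shares of all tested genes given for the 4 lists. Rin2, an exchange factor of Rab5, rose with both ligands, at 3.87 (SE 0.07) and 1.39 (SE 0.07), from 108 ± 9.34 CPM in control to 1582 ± 96.4 CPM after poly(I:C). Dennd6b rose with poly(I:C) at 4.6 (SE 0.11), and Dennd4a, an exchange factor of Rab10, fell at −3.49 (SE 0.09), as did Rab3il1 at −3.39 (SE 0.11). With CL075, Rabgef1, which also acts on Rab5, rose at 1.16 (SE 0.06), and Rin1 fell at −1.9 (SE 0.2) and Dennd2d at −1.17 (SE 0.12). Of 50 tested effectors, 14 rose and 13 fell with poly(I:C) and 11 rose and 11 fell with CL075, again near those shares. Rilpl1, which binds Rab8 and Rab10 phosphorylated by Lrrk2, rose with poly(I:C) at 5.39 (SE 0.14), and Rubcnl, of autophagosome maturation, at 4.22 (SE 0.11). Appl2, an effector of Rab5, fell at −2.39 (SE 0.06), and Mical3 at −2.28 (SE 0.16). With CL075, Rab11fip1, an effector of Rab11, rose at 2.34 (SE 0.12) and Rilpl2 at 1.93 (SE 0.06), while Mical1 fell at −1.96 (SE 0.15). Grasp fell at −1.52 (SE 0.36) with CL075, from 0.441 ± 0.122 CPM in control to 0.156 ± 0.0749 CPM. Grasp is counted in this list, but its protein is not an established Rab effector. Myo5a, a myosin used by Rab27a and Rab11, was the effector with the most reads and fell with CL075 at −0.8 (SE 0.07).

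The number of members called depended on the scale, and so did that of all genes. With poly(I:C), 44.7% of tested members were higher and 14.9% lower on the TMM scale, 27.7% and 27.7% with upper-quartile factors, 23.4% and 34.0% when scaled to Hprt, and 17.0% and 46.8% when scaled to library totals. All tested genes moved along: 25.4% and 30.5%, 19.8% and 41.4%, 17.2% and 50.2%, and 13.1% and 64.9%. Over all tested genes the median log2 fold change moved from −0.083 to −0.406, −0.632 and −1.019, and that of the members from 0.368 to 0.045, −0.186 and −0.570. On each of these scales the share of members called higher was above that of all genes and the share called lower was below it, a description without a test. With CL075 the member shares stayed near those of all genes on each scale.

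On all 5 scales, Rab9, Rab12, Rab19, Rab20, Rab21, Rab22a, Rab38 and Rab43 were called higher with poly(I:C), and Rab3a, Rab4a, Rab6b, Rab33a, Rab36, Rab40c and Rab44 were called lower. With CL075, Rab10, Rab20, Rab31, Rab32 and Rab33a were called higher, and Rab3a, Rab3d, Rab6b, Rab13, Rab19, Rab27a, Rab36, Rab38 and Rab44 were called lower on all 5. These 8 and 5 genes were the members whose higher calls did not depend on the scale among those tried. The poly(I:C) calls of Rab1, Rab2b, Rab5a, Rab5c, Rab7, Rab7b, Rab8b, Rab10, Rab18, Rab28, Rab29, Rab32 and Rab33b were lost on at least 1 scale, and so were the CL075 calls of Rab1, Rab6a and Rab18. Calls were gained as well: with upper-quartile factors, Hprt and library totals alike, Rab3d, Rab5b, Rab14, Rab23, Rab27a and Rab31 were called lower with poly(I:C), and Rab4a, Rab37 and Rab40c lower with CL075.

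**Figure D5:**
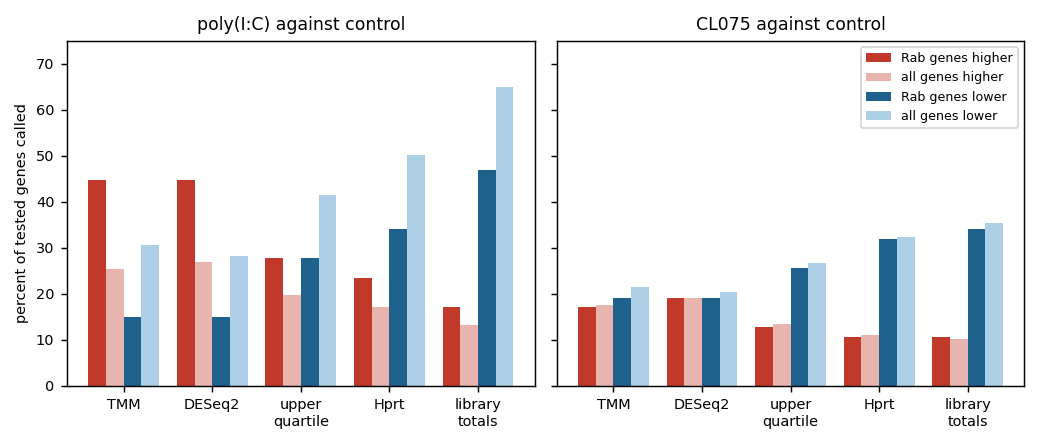
Percent of the 47 tested Rab genes (dark bars) and of all 11804 tested genes (pale bars) called higher (red) or lower (blue) than control, on 5 scales. With poly(I:C) the dark red bar is above the pale red bar and the dark blue bar below the pale blue bar on every scale, and with CL075 the bars of each color lie close together.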

How the data were processed

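The authors sequenced stranded poly(A) libraries, 5 per group and 15 in all, and deposited gene tables with counts and TPM per library. The tables used here came from CLC Genomics Workbench, in which the authors trimmed the reads and mapped them to GRCm38.p6, keeping reads with up to 5 hits. A further pipeline of HISAT2, featureCounts and edgeR, also named with bcl2fastq in the submitters' processing notes, made tables not used here. Not given in the sources used here were the version of CLC, its strand setting and how it shared out reads with several hits. The deposited counts are unscaled reads per gene, and the deposited TPM values were made by the authors from such counts and gene length. Columns of RPKM (20) and the authors' own fold changes and p-values were not used.

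Rab genes were chosen by name, and the members, their grouping and the other lists were chosen with earlier results of these data known. Counts of all 15 libraries were fitted together with edgeR 4.0.16 (TMM factors, filterByExpr, quasi-likelihood test, Benjamini-Hochberg adjustment over all 11804 genes tested) in R 4.3.3, with group as the only term and all contrasts from 1 fit. Calls needed an adjusted p under 0.05, a fold over 1.5 and a mean TPM over 0.5. SE is the standard error of a log2 fold change, taken as its size divided by the square root of the quasi-likelihood F statistic. Ratios of related genes were compared with exact permutation tests (scipy 1.17.1). The fit was tested on simulated counts in which few genes changed, unlike these data, so that test cannot check the choice of scale. Library values are given for the 6 called members with the largest change in each direction and treatment among those with at least 10 CPM in a group, for members called in opposite directions and for the 3 highest in control TPM. From each list of Rab partners, the 2 largest called changes in each direction and the gene with the highest CPM could be named. Promoter letters are from RefSeq, and windows on mouse chromosome 18 were left out. Shared stretches of 75 bases were counted in GENCODE transcripts. Alternatives were DESeq2 1.42.0, other scales, no count filter, a TPM floor of 1, fits of 2 groups, a test against 1.5-fold itself, a replicate block and leaving out libraries.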

Additional observations from a re-analysis of the deposited data

Results flagged for a closer look

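Within each group of 5 libraries, the highest or lowest library was checked for its gap to the others (Dixon's ratio above 0.71), in 141 combinations of gene and group, of which 3 passed. Chance passes about 1 in 20. For Rab10 after CL075, replicate 5 had 445 CPM, below the other 4 libraries at 488 to 500.0 CPM. For Rab37 in control, replicate 4 had 0.515 CPM, below the other 4 at 0.717 to 0.785 CPM. For Rab3d after poly(I:C), replicate 3 had 27.0 CPM, below the other 4 at 32.2 to 34.3 CPM.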

How the results depend on the processing

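Over 47 tested members and 3 comparisons, DESeq2, the fit of 2 groups, the replicate block and the summed read-through counts ended no call, and DESeq2 added Rab5a with CL075 (0.61); Rab36 gave no value between the ligands in the fit of 2 groups. A test against 1.5-fold itself ended the calls of Rab7 with poly(I:C), Rab18 with CL075, and Rab10 and Rab37 between the ligands. A TPM floor of 1 ended those of Rab36 with both ligands and of Rab6b and Rab37 between them. The scale mattered most. Members called higher and lower with poly(I:C) numbered 13 and 13 with upper-quartile factors, 11 and 16 with Hprt, and 8 and 22 with library totals. With CL075, 5 and 15 were called with Hprt and 5 and 16 with library totals, and between the ligands 11 and 18 with library totals. Rab partner genes called with library totals were 14 and 95 with poly(I:C), 13 and 51 with CL075 and 16 and 66 between the ligands, and with Hprt 71 were lower with poly(I:C), and 13 higher and 47 lower with CL075.

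Library totals also turned the poly(I:C) log2 fold changes of Rab13 (−0.64), Rab18 (−0.062), Rab28 (−0.033), Rab29 (−0.064), Rab2b (−0.26), Rab33b (−0.036), Rab34 (−0.82), Rab35 (−0.78), Rab37 (−0.59), Rab4b (−0.84), Rab5c (−0.035), Rab6a (−0.93), Rab7 (−0.33) and Rab7b (−0.14). These shifts follow from the scale, which moves all genes together.

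Leaving out libraries gave 21 to 21 members higher and 7 to 8 lower with poly(I:C), 8 to 9 and 9 to 10 with CL075, and 17 to 17 and 6 to 8 between the ligands. No call of a member was lost. Near the 1.5-fold limit, calls were gained by Rab27a with poly(I:C) (without control replicate 3 or poly(I:C) replicate 1 or 2), Rab31 with poly(I:C) (without poly(I:C) replicate 3), Rab37 with CL075 (without control replicate 4 or CL075 replicate 1, 2 or 4), Rab5a with CL075 (without control replicate 2), and Rab14 and Rab40c between the ligands (without several single libraries). For partner genes the ranges were 31 to 32 and 44 to 47, 20 to 21 and 29 to 32, and 31 to 32 and 36 to 38. Ratios differed in 14 to 14 pairs with poly(I:C) and 13 to 13 with CL075. Same-numbered libraries correlated at −0.004 to 0.324 over 15 pairs of libraries (median 0.224), 14 of them over 0.1. Libraries of different groups and numbers correlated at −0.232 to 0.221 over 60 pairs (median −0.047), 2 of them over 0.1. Same-numbered libraries were thus more alike. Their read file names share WT and a number across the groups, but what the number stands for was not stated. No pairing was used outside the replicate block, so the main fit and the main ratio tests left it out. Tested within replicate numbers (replicate block), 0 ratios passed with poly(I:C) and 0 with CL075, since 5 pairs allow no p below 0.0625. Low counts in at least 1 group limit, among others, Rab3a, Rab6b, Rab19, Rab33a, Rab36, Rab37 and Rab38.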
